A study of Mus musculus with 2 samples.

Results

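A set of 10 markers of liver macrophages was followed in regenerating WT and KO mouse livers, namely Clec4f, Cd5l, Vsig4, Marco, Timd4, Csf1r, C1qa, C1qb, C1qc and Cd68. They were taken by symbol from the table of hepatic RNA-sequencing, with several rows of a symbol to be summed and rows of failed estimates left out, and all 10 were found among its 33224 gene symbols, each in a single row that named no other gene. The study sequenced hepatic RNA after partial hepatectomy (PH) to ask which genes differ when regeneration is delayed by the lack of PPARβ, a nuclear receptor encoded by Ppard. The libraries numbered 2, 1 from WT and 1 from KO liver. The WT group carried no altered allele and the KO group was PPARbeta-null in all tissues as far as the labels say, with the design of the null allele not given in the sources used here. Both groups were male C57BL/6 mice with food at all times, labelled 4 month of age and in the design text 3 month, and RNA was taken 48 hr after PH. How many mice stood behind a library was not given in the sources used here. With 1 library per genotype there was no spread between mice, and each difference is one between these libraries.

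The liver holds its own resident macrophages, the Kupffer cells, which line the sinusoids and take up bacteria, dying cells and old erythrocytes from portal blood. They depend on signals through the Csf1 receptor and, in mice, are recognised by a set of marker genes. After PH they are known as a source of cytokines that prime hepatocytes, and monocytes from blood can enter the liver beside them. Clec4f, Vsig4, Timd4, Marco and Cd5l are used here as Kupffer cell identity genes, and Csf1r, Cd68 and the C1q chains as genes of macrophages in general.

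The markers as a group were lower in the KO library. Levels are in FPKM, fragments scaled to the exon length of a locus and to the mapped fragments of the library. FPKM summed to 99.5 over the 10 genes in WT and to 65.5 in KO. Of the 10 markers, 9 were lower in KO, Timd4 by only a small margin, and Marco was higher. In the table as a whole, 75.6% of the 11723 expressed genes, those that averaged 1 FPKM or more, were also lower in KO, so that the direction by itself says little about macrophages. The median log2 KO/WT of the 10 markers was -0.65, computed with a pseudocount of 0.1 FPKM, which corresponds to a WT/KO ratio of 1.57. The median of all expressed genes was -0.24, a WT/KO ratio of 1.18. A single marker, Csf1r, was more than 2-fold lower in KO and none was more than 2-fold higher, against 8.69% and 1.77% of expressed genes, or 1019 and 207 genes. After centring these were 726 and 334. In bulk tissue, fewer macrophages and less of an mRNA in each macrophage cannot be told apart.

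**Figure D1:**
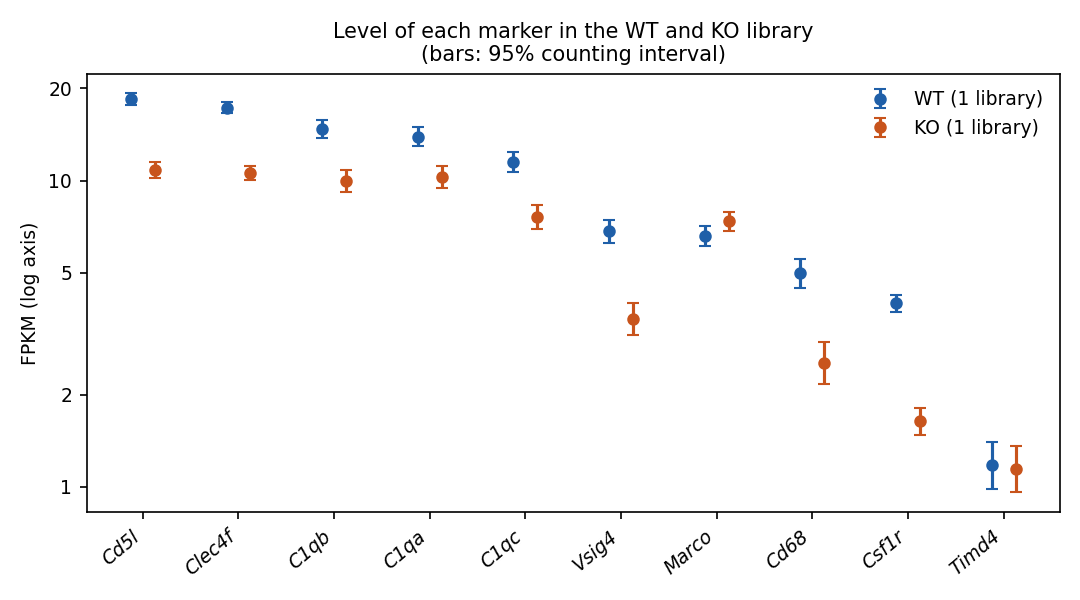
FPKM (log axis) of each of the 10 markers in the WT and the KO library, ordered by the WT level. Points are the deposited values of 1 library each and bars are 95% counting intervals, and the KO point lies below the WT point for 8 markers, with Timd4 at nearly equal levels and Marco higher in KO.

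The precision of each level was estimated from the depth of the libraries. The lowest FPKM of genes with 1 exon fell at whole multiples of a fragment's worth, and from that spacing an FPKM of 1 on a transcript of 1 kb rested on about 52.4 fragments in WT and 53.1 in KO. Over classes of transcript length this estimate ran from 51.0 to 53.5 in WT and from 51.9 to 62.9 in KO. Ranges in brackets after ratios are 95% intervals, exact binomial intervals on these estimated fragments. They cover counting error only, and the difference between mice is not in them.

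Regulatory sequence is shown for the neighbours C1qb and C1qc, whose ratios were close, for Vsig4 and Cd5l as Kupffer cell genes lower in KO, and for Marco as the gene that was higher. The 250 bases before each start are from RefSeq on GRCm38.p6, whose coordinates are not those of the FPKM table. Promoters of 8 of the 10 markers were matched, without C1qa and Csf1r. For C1qb, Timd4 and Cd68 the bases just after the RefSeq start were not found in a protein-coding GENCODE vM1 transcript of the gene. Capitals mark GAGGAA, a core of sites for PU.1 (encoded by Spi1), and TGCTGA, a partial site for Maf factors, on either strand, with the reverse forms TTCCTC and TCAGCA. These motifs do not share bases in the sequences printed.
C1qb, chr4:136886201-136886450, minus strand: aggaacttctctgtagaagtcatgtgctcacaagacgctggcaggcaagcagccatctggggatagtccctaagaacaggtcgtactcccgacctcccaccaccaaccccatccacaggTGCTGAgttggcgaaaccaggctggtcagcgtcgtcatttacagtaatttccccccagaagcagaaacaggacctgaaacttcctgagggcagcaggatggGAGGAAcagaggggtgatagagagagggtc
C1qc, chr4:136892915-136893164, minus strand: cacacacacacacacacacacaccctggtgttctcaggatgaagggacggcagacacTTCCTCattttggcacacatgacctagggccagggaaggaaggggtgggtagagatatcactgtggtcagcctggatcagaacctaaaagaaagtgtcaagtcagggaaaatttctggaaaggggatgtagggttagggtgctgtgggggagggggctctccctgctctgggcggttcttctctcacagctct
Vsig4, chrX:96293439-96293688, minus strand: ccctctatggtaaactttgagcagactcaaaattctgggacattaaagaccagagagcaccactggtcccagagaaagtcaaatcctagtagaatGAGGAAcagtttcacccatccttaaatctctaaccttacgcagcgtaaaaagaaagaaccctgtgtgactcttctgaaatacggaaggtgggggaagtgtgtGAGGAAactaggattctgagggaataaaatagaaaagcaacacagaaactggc
Cd5l, chr3:87357631-87357880, plus strand: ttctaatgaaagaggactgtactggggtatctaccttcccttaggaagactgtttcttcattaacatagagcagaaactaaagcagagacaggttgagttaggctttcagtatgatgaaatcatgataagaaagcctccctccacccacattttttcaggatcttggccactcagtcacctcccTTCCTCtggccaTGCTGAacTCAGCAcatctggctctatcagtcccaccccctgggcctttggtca
Marco, chr1:120505025-120505274, minus strand: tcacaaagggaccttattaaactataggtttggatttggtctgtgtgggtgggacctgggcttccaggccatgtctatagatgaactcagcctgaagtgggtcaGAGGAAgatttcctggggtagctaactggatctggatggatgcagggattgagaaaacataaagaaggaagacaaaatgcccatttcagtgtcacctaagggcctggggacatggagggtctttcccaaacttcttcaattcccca

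The PU.1 core was present before the start of 6 of the 8 matched markers, Marco, Cd5l, C1qb, C1qc, Cd68 and Vsig4, and in 23.3% of 32851 promoters of the same length outside chromosome 18. The partial Maf site was present for 4 of the 8, Cd5l, C1qb, Clec4f and Timd4, and in 16.1% of all promoters. In Vsig4 the core began 53 and 155 bases before the start, and in Cd5l it began 66 bases before the start with partial Maf sites at 54 and 46. Marco, the marker that was higher in KO, held the PU.1 core as well, 146 bases before its start. These are matches of letters and no binding was measured.

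Among the Kupffer cell identity genes, Clec4f, a C-type lectin receptor found on mouse Kupffer cells (chromosome 6, 83594536 to 83606181, minus strand, on NCBIM37, as for all loci that follow), stood at 17.3 FPKM in WT against 10.6 in KO. Its WT/KO ratio was 1.64 (1.53 to 1.75), on about 2240 and 1388 fragments. Cd5l, a secreted scavenger receptor protein of macrophages (chromosome 3, 87161803 to 87174996, plus strand), stood at 18.4 FPKM in WT against 10.8 in KO. Its ratio was 1.70 (1.58 to 1.83). These genes were the most abundant of the 10 markers in each library, and their WT/KO ratios were close to each other. Vsig4, a receptor for fragments of complement C3 (chromosome X, 93442542 to 93488842, minus strand), stood at 6.84 FPKM in WT against 3.53 in KO. Its ratio of 1.93 had an interval from 1.66 to 2.24, which includes 2-fold.

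Marco and Timd4 did not share this difference. Marco, a scavenger receptor that binds bacteria (chromosome 1, 122371115 to 122401661, minus strand, 17 exons in 1985 nt), stood at 6.58 FPKM in WT against 7.37 in KO. Its WT/KO ratio was 0.893 (0.805 to 0.991), with the upper bound just under 1. Marco was higher in KO under each scaling of the libraries tried. Timd4, a receptor for phosphatidylserine on dying cells (chromosome 11, 46624302 to 46657834, plus strand), stood at 1.18 FPKM in WT against 1.14 in KO. About 134 and 132 fragments stood behind these levels, and the ratio was 1.03 with an interval from 0.803 to 1.32, so that a difference was not detectable at this depth. The sign of Timd4, log2 KO/WT -0.04, turned to 0.18 once each log2 was centred on the expressed median and to 0.15 with equal upper quartiles. Of the expressed genes, 71.9% had a lower log2 KO/WT than Timd4 and 86.7% a lower one than Marco.

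Ratios between markers within a library do not depend on how the libraries were scaled, and the pairs of Kupffer cell genes set side by side here were chosen after their values were seen. The FPKM of Marco was 0.380 times that of Clec4f in WT (0.348 to 0.414) and 0.696 times in KO (0.637 to 0.760). The KO value of this ratio was 1.83 times the WT value (1.62 to 2.07). Timd4 relative to Clec4f was 0.0681 in WT and 0.108 in KO, a change of 1.59 times (1.23 to 2.03). Clec4f relative to Cd5l was 0.940 in WT and 0.978 in KO, a change of 1.04 times with an interval from 0.943 to 1.15. Vsig4 relative to Clec4f went from 0.395 to 0.334, a change of 0.846 times (0.719 to 0.995). Thus, among these chosen pairs, Marco and Timd4 were higher and Vsig4 lower relative to Clec4f in KO than in WT, beyond counting error alone. Since the pairs were picked on their values, the intervals are no test of a common proportion.

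**Figure D2:**
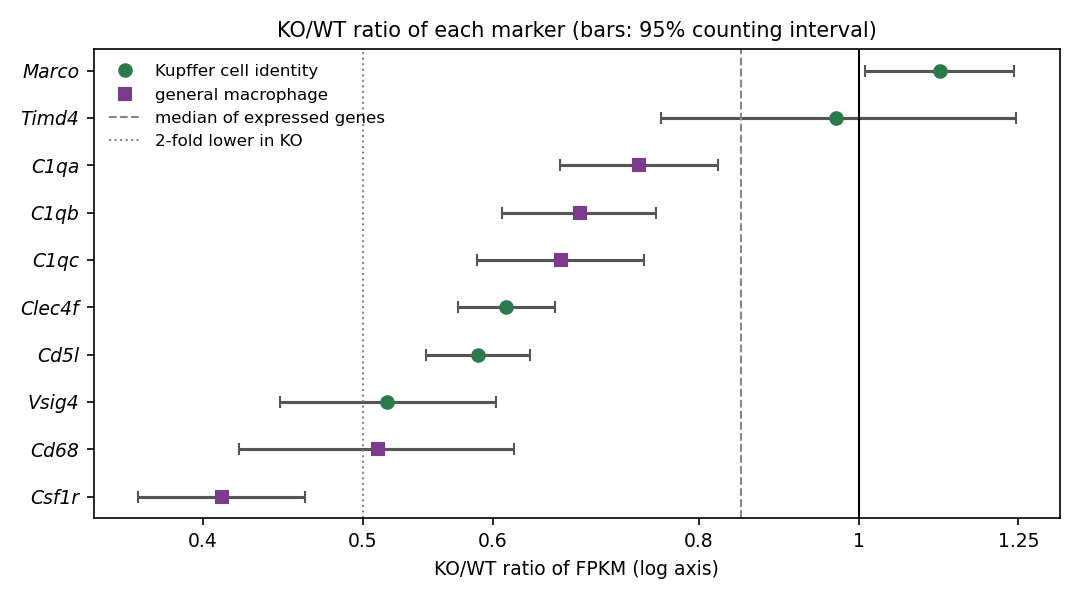
KO/WT ratio of FPKM (log axis) of each marker with its 95% counting interval, circles for Kupffer cell identity genes and squares for general macrophage genes. The dashed line is the median of expressed genes and the dotted line marks 2-fold lower in KO, with Csf1r to the left of it and Marco at the far right.

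The C1q genes encode the A, B and C chains of C1q, the recognition part of the classical complement pathway, which macrophages make. They lie next to each other on the minus strand of chromosome 4, C1qb from 136436044 to 136442102, C1qc from 136445106 to 136448980 and C1qa from 136451832 to 136454718. These are the bounds of the rows, and in GENCODE vM1 the C1qc gene spans only 136445719 to 136448980. Between the annotated genes the gap from C1qb to C1qc is 3616 bases and that from C1qc to C1qa is 2851 bases. C1qa stood at 13.9 FPKM in WT against 10.3 in KO, which gave 1.36 as its WT/KO ratio (1.22 to 1.52). C1qb stood at 14.8 FPKM in WT against 10.0 in KO, which gave 1.48 as its WT/KO ratio (1.33 to 1.64). C1qc stood at 11.5 FPKM in WT against 7.60 in KO, which gave 1.52 as its WT/KO ratio (1.35 to 1.71). The intervals of the chains overlapped one another. The proportions of the chains were nearly kept between the libraries, with C1qa to C1qb at 0.944 in WT and 1.02 in KO, a change of 1.09 times (0.933 to 1.26). C1qb to C1qc was 1.28 in WT and 1.32 in KO, a change of 1.03 times (0.878 to 1.20), and C1qa to C1qc was 1.11 times as high in KO as in WT (0.952 to 1.31). No change of proportion among the chains was detectable at this depth.

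Cd68, a glycoprotein of macrophage lysosomes (chromosome 11, 69477715 to 69479655, minus strand), stood at 4.98 FPKM in WT against 2.54 in KO. Its WT/KO ratio of 1.96 (1.62 to 2.38) lay just inside 2-fold. Csf1r, the receptor through which Csf1 and Il34 keep macrophages alive, had the lowest KO/WT ratio of the 10 markers, at 3.98 FPKM in WT against 1.64 in KO. Its WT/KO ratio was 2.43 (2.17 to 2.74), and 5.79% of expressed genes had a lower log2 KO/WT. The Csf1r row covers chromosome 18 from 61265226 to 61336704, whereas the annotated gene ends at 61291803. That locus also holds Hmgxb3 on the opposite strand, which shares 871 bases with Csf1r and has a row of its own, at 3.73 FPKM in WT against 3.06 in KO. The library kit did not keep strand, so fragments in the shared bases can belong to either gene. Without Csf1r the median log2 KO/WT of the other 9 markers was -0.59.

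In WT the order of FPKM from the highest was Cd5l, Clec4f, C1qb, C1qa, C1qc, Vsig4, Marco, Cd68, Csf1r and Timd4. Neighbours that did not differ beyond counting error were C1qb and C1qa, and Vsig4 and Marco. In KO the order was Cd5l, Clec4f, C1qa, C1qb, C1qc, Marco, Vsig4, Cd68, Csf1r and Timd4, where neighbours among the first 4 could not be told apart, nor could C1qc and Marco. Marco thus stood beside Vsig4 in WT and above it in KO. In mean level, 66.5% of expressed genes lay below Cd5l and 2.62% below Timd4.

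With 2 libraries the pattern of a gene is a single ratio, and many genes share it. The log2 KO/WT of 912 expressed genes, or 7.78%, lay within 0.1 of the median of the markers. Relative to the median of expressed genes, 8 of the 10 markers had a 95% interval wholly on the lower side, Marco had one wholly on the higher side, and that of Timd4 included it. How many of all expressed genes have such an interval was not computed, here or for the counts of intervals that follow. These counts by themselves therefore say little about macrophages. Over the 5 Kupffer cell identity genes the median log2 KO/WT was -0.70 and over the 5 general macrophage genes it was -0.59, a difference of -0.11. This difference is small beside the range within each group, from -0.93 to 0.16 and from -1.23 to -0.44.

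**Figure D3:**
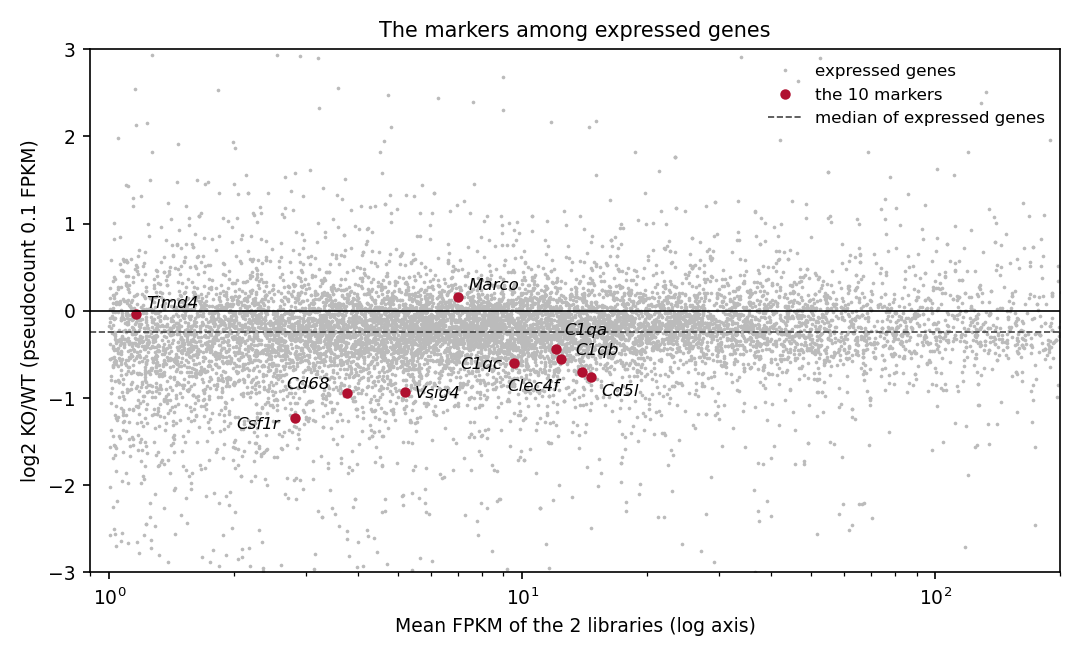
log2 KO/WT of FPKM (pseudocount 0.1 FPKM) against the mean FPKM of the libraries (log axis) for expressed genes in grey and the 10 markers in red, without 531 genes beyond an FPKM of 200 or a log2 of 3 in either direction. The dashed line is the median of expressed genes at -0.24, and 8 markers lie below it.

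Of 12 other genes known from Kupffer cells, 10 were lower in KO, a share near the 75.6% of all expressed genes, and their median was -0.62. Relative to the expressed median, 9 had an interval wholly below it and 3 wholly above it. Lyz2, lysozyme of myeloid cells, had the largest difference, at 16.8 FPKM in WT against 6.88 in KO and 2.44 as its WT/KO ratio (2.19 to 2.72). The most abundant genes of this list are also made by hepatocytes or shared a locus. C6, a component of the membrane attack complex, stood at 73.7 FPKM in WT against 76.4 in KO, Hmox1, which degrades heme, 27.4 and 25.8, and Cfp, in a row with Elk1 and Uxt, 24.8 and 18.2. Il18bp, in a row with Rnf121, had 18.1 and 19.0. Hmox1 turned to higher in KO under centring and with equal upper quartiles. The other 7, named here after their values were seen, had WT/KO ratios of 1.88 for Siglec1, 1.86 for Adgre1 (listed as Emr1, the F4/80 antigen), 1.87 for the haemoglobin receptor Cd163, 1.86 for the folate receptor Folr2, 1.58 for the ficolin Fcna and 1.52 for the protease Ctsc, and the iron exporter Slc40a1 stood at 22.3 FPKM in WT against 14.9 in KO.

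Genes of the Csf1 receptor ligands and of macrophage lineage factors were split. Of 12 genes, 11 were found, Irf8 not being analysed here. In KO 8 of the 11 were lower, a share near the 75.6% of all expressed genes, with a median of -0.47. Spi1, which encodes PU.1 and is listed as Sfpi1, stood at 1.73 FPKM in WT against 0.919 in KO, which gave 1.88 as its WT/KO ratio (1.48 to 2.44). The ligand genes Csf1 and Il34, named after their values were seen, had ratios of 1.74 and 1.18, the latter with an interval from 0.925 to 1.51. The most abundant genes of the list are also expressed by hepatocytes. Cebpa stood at 60.1 FPKM in WT against 45.8 in KO, Id3 40.6 and 45.3, and Nr1h3, which encodes LXRα and shares its row with Madd and Gm13783, 47.7 and 54.6.

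Receptors for phagocytosis and antibody were lower in KO in all 12 cases, against 75.6% of expressed genes, with a median of -0.80. Mertk was lower by only a small margin, at 4.38 FPKM in WT and 4.26 in KO. Its WT/KO ratio was 1.03 (0.942 to 1.13), and its log2 KO/WT of -0.04 lay above the median of expressed genes. By more than 2-fold in FPKM, 4 of the 12 were lower, against 8.69% of expressed genes. The expressed genes averaged 1 FPKM or more, as did 9 of the 12. Of these 9, Fcgr3 alone was past 2-fold, and Fcgr1, Itgam and Itgb2 averaged less. With the pseudocount, Fcgr1 at a log2 of -0.79 and Itgb2 at -0.93 were within 2-fold. Fcgr3, an activating receptor for IgG, had the largest fold among those that averaged 1 FPKM or more, with 2.30 in WT and 0.937 in KO and 2.45 as its WT/KO ratio (1.83 to 3.31). Fcgr2b, the inhibitory receptor for IgG, which sinusoidal endothelium also carries, had 12.2 in WT and 8.47 in KO. Cd36, a scavenger receptor, had 18.1 and 12.9, and Gas6, a ligand of the receptors Axl and Mertk, had 15.1 and 12.9. The log2 KO/WT of Gas6, -0.22, turned to 0.01 after centring.

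Most genes of recruited monocytes and macrophages were also lower in KO. Among the 11 of 12 genes that averaged 0.1 FPKM or more, all were lower, against 75.6% of expressed genes, with a median of -0.79. The interval of Ly6c2 included a ratio of 1, with 1.45 as its WT/KO ratio (0.522 to 3.63). Gpnmb, just under the floor at a mean of 0.0989 FPKM, was higher in KO, at 0.0915 in WT and 0.106 in KO. Its interval also included 1. Chil3, Lgals3, Ccr2 and F13a1 were lower by more than 2-fold, against 8.69% of expressed genes. Chil3 and Lgals3 were among the 6 of the list that averaged 1 FPKM or more, as the expressed genes did, and Ccr2 and F13a1 averaged under 1 FPKM. Of the 11, 6 had an interval wholly below the expressed median. Chil3, in a joint row as Chi3l3 and Chi3l4, stood at 2.14 FPKM in WT against 0.313 in KO, which gave 6.84 as its WT/KO ratio (4.45 to 10.6). These paralogs are alike, so the value belongs to the pair. Ccr2, the chemokine receptor of inflammatory monocytes, and Lgals3, a galectin of macrophages, were named after their values were seen and had ratios of 3.23 and 2.90. Cd9, Spp1 and Ly6c1, the last in a row with Ly6a, were the most abundant, with ratios of 1.21, 1.08 and 1.14, and other liver cells express them as well. Centring turned the sign of Spp1 and Ly6c1.

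Lysosomal genes, which every cell expresses, had a median of -0.40, with 10 of 12 lower in KO, a share near the 75.6% of expressed genes. Ctss, a cathepsin of macrophages and other antigen-presenting cells, had the lowest KO/WT ratio, at 8.62 FPKM in WT against 4.37 in KO and 1.97 as its WT/KO ratio (1.72 to 2.27). Ctsl had 546 and 373, Lamp1 had 227 and 191, and Lamp2 had 254 in WT and 275 in KO. The list of C1q partners holds proteases and regulators made mainly by hepatocytes, and also Calr and Cd93. Most of its values went the other way. Of 8 genes found, 7 were higher in KO, with a median of 0.24, and C3 was left out as a failed estimate. C1ra and C1rb share a row, so that these 7 genes are 6 measured values, and with rows of a single symbol the median was 0.34. Of all expressed genes, 75.6% were lower in KO. C2, in a row with Cfb, stood at 327 FPKM in WT against 504 in KO, Serping1, the C1 inhibitor, 288 and 389, and Calr, calreticulin, 349 and 503. Cd93, a receptor of endothelial and myeloid cells, was the exception, with 1.84 in WT and 1.03 in KO.

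Markers of the other cell types in liver were set beside the macrophage markers. General leukocyte markers had a median of -0.81 with 6 of 6 lower in KO, against 75.6% of expressed genes. Cd52 had the largest fold among them at 2.44, Laptm5 stood at 5.26 FPKM in WT against 2.52 in KO, and Lcp1 had 28.7 and 22.0. The neutrophil markers summed to 15.1 FPKM in WT against 8.03 in KO. S100a8 had 6.68 in WT and 3.33 in KO, S100a9 had 6.11 and 3.48, and Retnlg had 1.88 and 0.957, whereas the granule genes Camp and Mpo were listed at 0 in both libraries. Lymphocyte markers were near the floor, with summed FPKM of 1.21 and 0.607 over 10 genes. Cd4, the co-receptor of helper T cells, was the highest at 0.340 in WT and 0.127 in KO, followed by Cd79b and Cd3g. Dendritic cell markers had a median of -0.15 over 3 genes. Clec9a, in a row with Clec1b, had 3.08 in WT and 2.30 in KO, and Zbtb46 had 1.18 and 1.05. Siglech was slightly higher in KO, at 0.124 in WT and 0.131 in KO, with an interval that included a ratio of 1. The log2 KO/WT of Zbtb46, -0.15, turned to 0.07 after centring and to 0.04 with equal upper quartiles.

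Liver endothelial markers had a median of -0.63 with 9 of 9 lower in KO, against 75.6% of expressed genes. Over Stab1, Stab2 and Clec4g, those that averaged 5 FPKM or more, the median was -0.21. Lyve1, a hyaluronan receptor, stood at 2.72 FPKM in WT against 1.17 in KO, which gave 2.33 as its WT/KO ratio (1.92 to 2.81), and Stab2 had 9.66 and 6.23. Stab1, with 11.7 and 10.5, and Clec4g, in a row with Gm9814, with 21.8 and 18.9, changed sign under centring, as did Vwf, von Willebrand factor, to 0.11. Stellate cell markers had a median of -0.53, with 7 of 7 lower in KO, set against the same 75.6%. Among them were Lrat, which esterifies retinol, at a ratio of 1.72, Reln at 1.49 and Ecm1, in a row with Tars2, at 1.29. Colec11 and Des were lower by only a small margin, and their intervals included 1. For Colec11 the WT/KO ratio was 1.11 (0.988 to 1.24), and for Des it was 1.11 (0.935 to 1.31). The log2 KO/WT of Colec11, -0.14, turned to 0.09 after centring and to 0.06 with equal upper quartiles. Of 5 cholangiocyte markers, 4 were lower in KO, a share near the 75.6% of expressed genes, with a median of -0.57. The keratin genes Krt19 and Krt7 had WT/KO ratios of 3.08 and 3.11, Epcam had 1.64 and Spint1 had 0.833, and Sox9 stood at 1.95 FPKM in WT against 1.78 in KO. The hepatocyte markers summed to 11943 FPKM in WT against 9705 in KO and had a median of -0.06, which turned to 0.18 after centring. They went both ways, with Ass1 at 2672 in WT and 983 in KO, Apob at 823 and 1282, Apoa1 at 3061 and 3503, and Ttr at 2503 and 2406. Centring turned the sign of Ttr and of Sox9. The part of the other cell types, and of their number in the tissue, in the values of the macrophage markers was not tested.

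**Figure D4:**
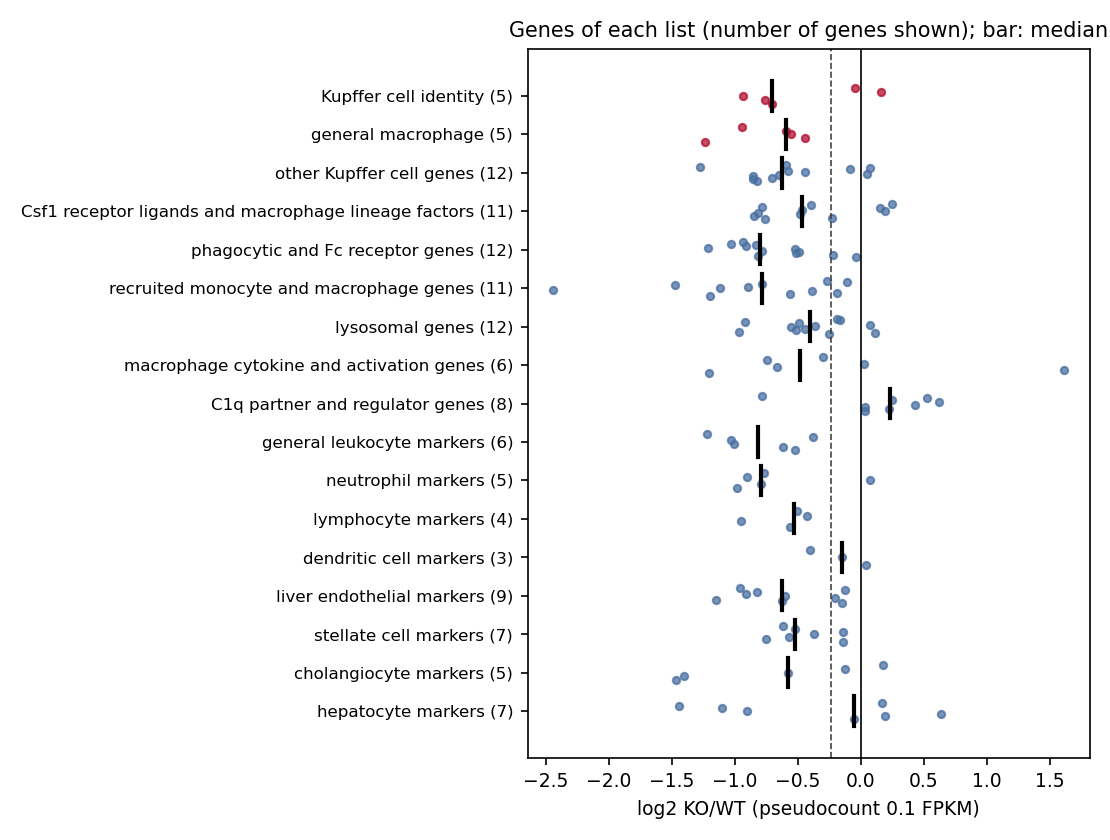
log2 KO/WT (pseudocount 0.1 FPKM) of the genes of each list that averaged 0.1 FPKM or more, with the number of genes in brackets and a bar at the median. The dashed line is the median of expressed genes, and medians of the lists of macrophage, leukocyte, endothelial and stellate genes lie to its left while that of the C1q partner genes lies to the right of 0.

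Ppard, the targeted gene, stood at 2.67 FPKM in WT against 2.42 in KO over its whole locus, so the level of the locus did not separate the libraries. The names of the libraries in the table carry different lane names, and lane, mouse and genotype cannot be told apart.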

How the data were processed

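RNA-sequencing of 1 WT and 1 KO liver library was analysed. The authors aligned reads with TopHat 2.0.0 to mm9 (NCBI37), assembled transcripts with Cufflinks 1.3.0 and deposited 1 FPKM value per locus and library from Cuffdiff, scaled to exon length and to mapped fragments. The labels name paired end reads and the methods single end reads. The table's columns of fold change, test statistic, p-value and q-value hold the authors' own comparison and were not used. Of 38016 rows, 2302 had no symbol, 850 named several symbols, each given the joint value, and 21 marked HIDATA were left out. Rows of a symbol were summed.

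Loci were compared with GENCODE vM1 on NCBIM37, the same build, in which 32451 of 33224 symbols were found. Fragments were estimated from FPKM, the longest annotated transcript and the spacing of low values of 3118 single-exon genes. Log2 ratios used a pseudocount of 0.1 FPKM, which shrinks the ratios of weakly expressed genes, and list medians left out genes averaging under 0.1 FPKM. No test across samples was possible with 1 library per genotype. The steps were tested on simulated data. Intervals came from scipy 1.17.1, tables from pandas 2.3.3 with numpy 2.4.6 in Python 3.11.15, and plots from matplotlib 3.10.9.

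The members and gene lists were chosen with earlier results of these data known. Genes named by rule were the 10 markers, the 3 of each list with the highest mean FPKM, and that with the largest fold in each direction at a mean FPKM of at least 1. Ppard was named as the targeted gene and Hmgxb3 as a neighbour of Csf1r. Further genes given values were named after these were seen. Alternatives covered scaling, pseudocount, filters, fold, joint rows and transcript length.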

Additional observations from a re-analysis of the deposited data

How the results depend on the processing

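The median log2 KO/WT of the 10 markers was -0.41 once centred on the expressed median and -0.45 with equal upper quartiles, against -0.65 as deposited. It ran from -0.60 to -0.65 under the other alternatives except the removal of Csf1r, which gave -0.59 and was chosen after seeing the data. Clec4f, Cd5l, Vsig4, Csf1r, C1qa, C1qb, C1qc and Cd68 stayed lower and Marco higher in KO under each scaling and pseudocount tried, and Timd4 changed sign after centring and with equal upper quartiles. At a fold of 1.5 in place of 2, 6 of the 10 markers were lower past the threshold, against 2330 of the 11723 expressed genes. Csf1r was below 2-fold, at a log2 of -0.92, with a pseudocount of 1 FPKM. Of expressed genes, 1019 were lower and 207 higher in KO by more than 2-fold. The number higher was 334 after centring, with 726 lower, and 314 with equal upper quartiles, with 762 lower. At a fold of 1.5 the numbers were 2330 lower and 492 higher, with a mean FPKM of at least 5 they were 409 and 124, and with no filter on low values 2949 and 746. The interval left out a ratio of 1 for 9 markers whichever transcript length or depth was used. With the union of exons as length, C1qa to C1qc was 1.94 in WT, since the union of C1qc is longer, and the change of the ratio between libraries was not altered by this. At a mean FPKM of at least 5 the medians were -0.73 for Kupffer cell identity genes and -0.56 for general macrophage genes. They were -0.21 for endothelial, -0.23 for recruited monocyte, -0.38 for leukocyte and -0.50 for phagocytic receptor genes. This filter left few genes, with Lcp1 alone for leukocytes and Stab1, Stab2 and Clec4g for endothelium, and it dropped Timd4, Csf1r and Cd68. Without it the leukocyte median was -0.81 and that of Kupffer cell identity genes -0.70. Depth limits Timd4 most. No library could be left out in turn, each genotype having 1. No paired analysis was possible because the labels give no number that links the WT and KO libraries.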

Other observations

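Cytokine genes of activated macrophages were scarce in these livers. Of 12 genes, 6 had a mean FPKM under 0.1, and among the other 6 the median log2 KO/WT was -0.48. Il1rn, which encodes the antagonist of the interleukin-1 receptor and is also made by hepatocytes, stood apart, at 1.46 FPKM in WT against 4.67 in KO, which gave 0.312 as its WT/KO ratio (0.264 to 0.368). Il1b, named after its values were seen, stood at 0.474 FPKM in WT against 0.149 in KO on about 33.7 and 10.7 fragments, which gave 3.19 as its WT/KO ratio (1.55 to 6.85). Cd74, the invariant chain of MHC class II, had 8.72 in WT and 7.07 in KO, Tgfb1 had 3.27 and 2.03, and Il18 had 4.63 and 4.71. The intervals cover counting error only, from 1 library per genotype.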
